A study of Mus musculus with 4 samples.

Results

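The genes Evl, Fmnl2, Mical3, Mtss1 and Spna2, which act on actin assembly and on the link between the membrane and the cortex, were followed through alternative splicing (AS) in mouse endothelial cells (ECs). The 5 genes were chosen by name from the deposited table of AS events, with earlier results of these data known, and every event listed for them was taken. They carry 6 of the 1075 events of the table, in 5 of its 869 genes, and all 6 are cassette exons, out of 549 cassette exons in all. RNA-seq compared 2 libraries of control mouse ECs (moEC), which carried the empty HA vector, with 2 libraries of moEC that stably overexpressed HA-tagged human NOVA2 from the CMV promoter of pLenti-GIII-CMV human NOVA2-HA. Both lines were made by lentiviral transduction, kept under puromycin and grown sparse, so each group is a single transduced line, and whether its duplicates were separate cultures is not stated. Neither the level of NOVA2 nor endothelial markers could be read here, since the table holds splicing events of other genes. An event entered the table only if every control library differed from every NOVA2-overexpressing library by more than 5 points of percent spliced in (PSI), so the differences in PSI below were used to choose these exons, are given as a description and carry no test.

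The actin cortex is a thin filament network under the plasma membrane that endothelial cells rebuild when they spread, migrate and form vessels. Evl, a member of the Ena/VASP family, helps actin filaments elongate at their growing ends, and Fmnl2 is a formin, a protein that starts and extends unbranched filaments. Mical3 belongs to a family of flavin monooxygenases that oxidise actin, Mtss1 has an I-BAR domain that binds and bends membranes, and Spna2 is the non-erythroid alpha spectrin (also called Sptan1) of the mesh that lines the membrane. NOVA proteins bind pre-mRNA at clusters of the tetramer YCAY, in which Y is C or T, and the place of such clusters relative to an exon is known to go with skipping or with inclusion.

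The exons themselves are shown first, since the data are about their presence in the mRNA. Each is written 5′ to 3′ on the transcribed strand of the mm9 assembly, and capitals mark the YCAY tetramers (CCAC or CCAT as well as TCAC or TCAT).
Evl, 63 nt, chr12:109921558-109921620 (+): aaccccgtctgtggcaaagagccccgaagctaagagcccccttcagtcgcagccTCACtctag
Fmnl2, 47 nt, chr2:52989446-52989492 (+): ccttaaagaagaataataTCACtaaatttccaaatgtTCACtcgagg
Mical3, 51 nt, chr6:120903652-120903702 (-): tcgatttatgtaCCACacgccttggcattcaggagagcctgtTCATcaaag
Mtss1, 195 nt, chr15:58778881-58779075 (-): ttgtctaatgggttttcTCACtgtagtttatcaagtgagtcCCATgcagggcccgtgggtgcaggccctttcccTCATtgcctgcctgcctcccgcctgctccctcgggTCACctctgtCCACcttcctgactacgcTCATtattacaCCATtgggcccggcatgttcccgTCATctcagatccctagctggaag
Spna2, 60 nt, chr2:29856620-29856679 (+): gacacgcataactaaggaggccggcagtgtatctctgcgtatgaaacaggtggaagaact
Spna2, 15 nt, chr2:29869678-29869692 (+): ctttccaagctgttg
All 6 are annotated as coding. The lengths of 5 of the 6 are a multiple of 3, against 52.6% of the deposited cassette exons (289 of 549), and the Fmnl2 exon is the exception. The 5 add 21 codons in Evl, 17 in Mical3, 65 in Mtss1 and 20 or 5 in Spna2. No stop codon was found in frame in the exons of Evl, Fmnl2, Mtss1 and Spna2, while the frame of the Mical3 exon was not followed because its only annotated transcript is incomplete at its start.

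The exons sit at different places in their genes. The Evl exon follows 1019 of the 1242 coding nt (82.0%) of the longest transcript that holds it, behind a short intron of 86 nt, and the form with this insert is known as Evl-I. The Mtss1 exon follows 46.0% of the coding sequence. In Spna2, the exon of 60 nt follows 42.5% and the exon of 15 nt follows 63.2%. The Fmnl2 exon follows 97.4% of the coding sequence and is the last but one coding exon. Beyond a shared upstream exon, the 2 annotated Fmnl2 transcripts with the exon have 83 coding nt left and the 1 that skips it has 107. Between these forms the exon thus exchanges the C-terminal end of the formin, which in this family is next to the segment for autoinhibition. Further annotated transcripts with the shared exon are of neither form and have 200, 89 or 38 coding nt left. The choice is therefore not only between 2 ends.

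In NOVA2-overexpressing ECs, 4 of the exons were included less (Evl, Fmnl2, Mical3 and Mtss1) and the 2 exons of Spna2 were included more. The dPSI, in points, is the NOVA2-overexpressing mean with the control mean subtracted. All 6 exons had an absolute dPSI of at least 10, which also holds for 53.0% of the deposited cassette exons (291 of 549) and for 53.1% of all deposited events (33.0% higher and 20.1% lower). The table and the choice of the genes used this contrast, so nothing is read from the count. The exons lower by at least 10 points make up 33.2% of the cassette exons and those higher by as much 19.9%. The median absolute dPSI was 15.9 for the 6 exons and 10.3 for all deposited cassette exons. These medians are under the same limit as the count, so nothing is read from their difference.

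**Figure D1:**
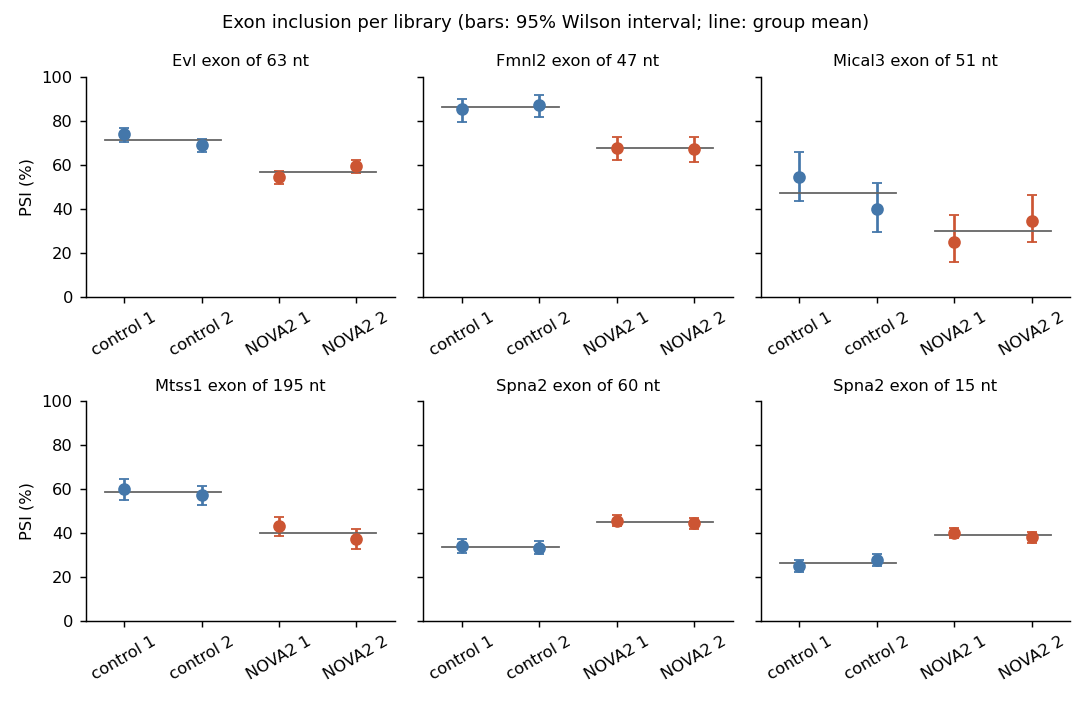
PSI in percent (y axis) of the 6 exons in control and NOVA2-overexpressing libraries 1 and 2 (x axis), with the 95% Wilson interval of the reads as bars and the group mean as a line. The 4 exons of Evl, Fmnl2, Mical3 and Mtss1 are lower in both NOVA2-overexpressing libraries and the 2 exons of Spna2 higher, and the intervals of Mical3 overlap between groups.

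Among the genes that build filaments, the PSI of the Evl exon was 73.9% and 69.0% in control replicates 1 and 2 and 54.3% and 59.4% in NOVA2-overexpressing replicates 1 and 2. Both NOVA2-overexpressing libraries lay below both controls, the closest pair being 9.59 points apart. The mean changed from 71.5% ± 3.49 to 56.9% ± 3.59 (SD, n = 2), a dPSI of -14.6 points. Between 763 and 1027 reads stood behind each value, and the 95% Wilson intervals of the libraries spanned 65.8 to 76.9% for control ECs and 51.3 to 62.5% for NOVA2-overexpressing ECs. These intervals cover counting error only, and they are too narrow because an included transcript can give reads at both of its junctions.

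The formin Fmnl2 had an exon whose dPSI was close to that of Mtss1, and its replicates differed by 1.83 points in control and 0.420 points in NOVA2-overexpressing ECs. The exon was included at 85.5% and 87.3% in control ECs, which makes it the most included of the 6, and at 67.8% and 67.4% in NOVA2-overexpressing ECs. The groups were separated by at least 17.65 points. The mean was 86.4% ± 1.29 and 67.6% ± 0.297 (SD, n = 2), a dPSI of -18.8 points, with 166 to 292 reads in a library. Skipping was seen in 13 and 12 junction reads in control replicates 1 and 2 and in 56 and 52 in NOVA2-overexpressing replicates 1 and 2. Among the 344 cassette exons with a lower PSI, 27 (7.85%), this exon included, had a dPSI at least as large.

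For Mical3, the actin oxidase, the data were the thinnest. The PSI was 54.4% and 39.8% in control replicates 1 and 2 and 25.0% and 34.6% in NOVA2-overexpressing replicates 1 and 2. The replicates differed by 14.5 points in control ECs and by 9.58 points in NOVA2-overexpressing ECs, while the closest pair of libraries across the groups was 5.23 points apart, just inside the 5 points required by the table. The mean changed from 47.1% ± 10.3 to 29.8% ± 6.77 (SD, n = 2), a dPSI of -17.3 points on 60 to 72 reads. The Wilson intervals were 43.4 to 66.0% and 29.7 to 51.8% in control ECs and 15.8 to 37.2% and 24.8 to 46.2% in NOVA2-overexpressing ECs. Apart from control replicate 1 and NOVA2-overexpressing replicate 1, the intervals of every pair of libraries across the groups overlapped. Overlap of intervals does not by itself show that 2 libraries are alike, and the pairs were not tested. The upstream junction of the exon had 31, 28, 10 and 19 reads in control replicates 1 and 2 and NOVA2-overexpressing replicates 1 and 2, and the downstream junction had 19, 13, 14 and 18. The difference thus lay mainly in the upstream junction: taken from that junction alone the dPSI was -25.1 points, and from the downstream junction alone -7.54 points. Control replicate 2 carried the vast-tools flag for unequal junctions, and without control replicate 1 the dPSI was -10.0 points.

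Mtss1, the membrane-bending protein, has the longest of the exons. Its PSI was 60.1% and 57.3% in control ECs and 43.1% and 37.5% in NOVA2-overexpressing ECs, with no overlap and at least 14.15 points between the groups. The exon was in the majority of transcripts in control ECs and in the minority in NOVA2-overexpressing ECs. The mean changed from 58.7% ± 1.99 to 40.3% ± 3.995 (SD, n = 2), a dPSI of -18.4 points on 393 to 493 reads in a library. None of the Mtss1 transcripts annotated here joins the flanking exons directly, and 3 contain the exon. In these libraries the skipped form was seen in the 98 to 207 junction reads that span it in each. The paper also reports, by RT-PCR, an Mtss1 exon skipped more under NOVA2 overexpression in moEC, with the opposite change after Nova2 depletion. That exon was matched to this one by gene and direction only. The paper picked its RT-PCR events from those found in its RNA-seq, and this exon is the only Mtss1 event in the deposited table.

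In Spna2 the spectrin exon of 60 nt had a PSI of 34.1% and 33.5% in control ECs and of 45.7% and 44.6% in NOVA2-overexpressing ECs. Replicates differed by 0.640 and 1.10 points and the groups by at least 10.49 points. The mean changed from 33.8% ± 0.453 to 45.2% ± 0.778 (SD, n = 2), a dPSI of 11.4 points on 865 to 1613 reads. The exon of 15 nt, one of the 12 microexons that the deposited table lists in a class of its own, had a PSI of 25.0% and 27.7% in control ECs and of 40.1% and 38.2% in NOVA2-overexpressing ECs. Its mean was 26.4% ± 1.94 and 39.1% ± 1.39 (SD, n = 2), a dPSI of 12.8 points with at least 10.4 points between the groups.

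Reads that contained the microexon numbered 154 and 202 in control ECs and 425 and 391 in NOVA2-overexpressing ECs, against 809 and 921 and then 1110 and 1109 reads that skipped it. The deposited PSI rests on corrected reads that differ from these, by a correction whose form for this exon is not given in the sources used here. Without it the dPSI was 9.89 points, under the threshold of 10. The 2 Spna2 exons are 12998 nt apart with 13 exons between them. Of the 5 annotated coding transcripts that span both places, 1 has both exons, 1 has the exon of 60 nt alone, 2 have the exon of 15 nt alone and 1 has neither. Reads of 2 distant junctions do not show whether one transcript carries both, so the PSI values of the exons were not combined.

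Ordered by their mean PSI in control ECs, the exons ran from Fmnl2 through Evl, Mtss1, Mical3 and the Spna2 exon of 60 nt to the Spna2 exon of 15 nt, and in that order no neighbours overlapped in their replicates. In NOVA2-overexpressing ECs the order was Fmnl2, Evl, Spna2 60 nt, Mtss1, Spna2 15 nt and Mical3. There the replicates of Mtss1 (37.5 to 43.1%) included those of the Spna2 exon of 15 nt (38.2 to 40.1%), and these neighbours did not differ beyond their spread. The 6 exons were covered better than most: the median of the smallest number of reads in a library was 578 for them and 63 for the cassette exons, and 5 of the 6 (not Mical3) had the highest coverage score in every library, against 37.3% of the cassette exons.

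**Figure D2:**
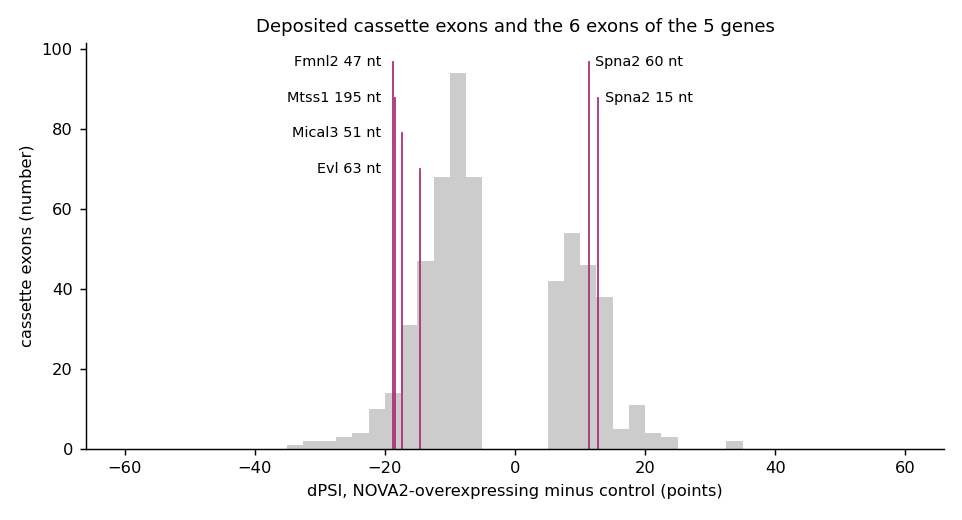
Number of deposited cassette exons (y axis) by dPSI in points (x axis), with lines at the 6 exons. The 4 lower exons lie between -18.8 and -14.6 points and the 2 Spna2 exons at 11.4 and 12.8 points, and the empty middle comes from the rule of the table.

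The same PSI difference can come with unlike changes in the 2 forms. Reads were divided by a scaling factor of the library (0.762 and 0.953 for control replicates 1 and 2, 1.21 and 1.14 for NOVA2-overexpressing replicates 1 and 2), and the inclusion reads were averaged over both junctions. These scaled reads are from the contrast that chose the exons and carry no test. In Fmnl2 the scaled skipping reads were 17.1 and 12.6 in control ECs and 46.3 and 45.7 in NOVA2-overexpressing ECs, a ratio of means of 3.10. Its inclusion reads overlapped between the groups, at 100.4 and 86.6 against 97.5 and 94.4. In Mical3 the pattern was the other way round: skipping reads lay between 27.6 and 32.5 in all 4 libraries, while inclusion reads were 32.8 and 21.5 in control ECs and 9.92 and 16.2 in NOVA2-overexpressing ECs. In Mtss1 both forms were separated, with inclusion reads at 0.597 times and skipping reads at 1.26 times the control mean. The same held for Evl, with ratios of 0.765 and 1.46.

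For both Spna2 exons the inclusion reads were separated and the skipping reads were not. The exon of 60 nt had inclusion reads of 288.8 and 257.7 in control ECs and of 406.3 and 436.9 in NOVA2-overexpressing ECs, with skipping reads from 482.7 to 557.9 over all libraries. For the microexon the inclusion reads were set from the skipping reads and the PSI. They were 353.8 and 371.1 in control ECs and 614.8 and 600.9 in NOVA2-overexpressing ECs, a ratio of 1.68, while the skipping reads ranged from 917.5 to 1061.9.

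**Figure D3:**
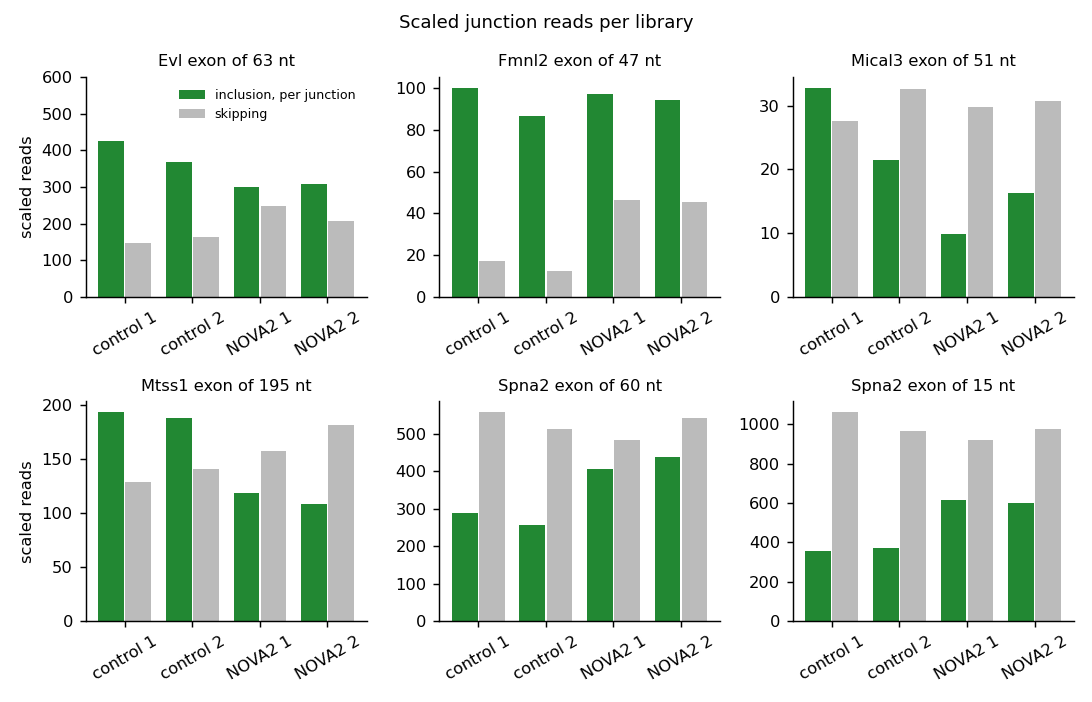
Scaled reads (y axis, from 0) that include an exon, per junction (green), or skip it (grey) in each library (x axis). The skipping bars of Fmnl2 and the inclusion bars of Spna2 are taller in both NOVA2-overexpressing libraries, and the inclusion bars of Evl, Mical3 and Mtss1 are shorter.

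The question left for a test was whether the amount of RNA over each exon changed too. Junction depth, the inclusion reads per junction plus the skipping reads, counts a transcript about once whether or not it holds the exon, and was not used to choose the events. For microexons and alternative splice sites, where reads per junction are not listed, it is the sum of all inclusion and skipping reads. It was compared on the log2(scaled depth + 0.5) scale with limma over all 1075 events, and 6.60% of them (71) had a Benjamini-Hochberg adjusted p under 0.05, 3.63% higher and 2.98% lower in NOVA2-overexpressing ECs. Of the 6 exons, 1 passed. Depth over the Fmnl2 exon was 117.5 and 99.2 scaled reads in control ECs and 143.8 and 140.1 in NOVA2-overexpressing ECs. It rose in both libraries, by 1.31-fold (log2 change 0.39, SE 0.128, adjusted p = 0.0398, limma). The call was lost without control replicate 2 (adjusted p = 0.196, limma), without NOVA2-overexpressing replicate 1 (0.453) and without NOVA2-overexpressing replicate 2 (0.388), fits in which a lone library is taken to vary like the others. It was also lost in limma without a trend (0.278), with a mean depth of at least 20 (0.0527) and with a replicate block (0.0616). In the main fit the trend sets the spread largely from all events of like depth. The call thus rests little on the spread at this exon itself.

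Depth over the other exons gave no call. Evl had 574.9 and 533.2 scaled reads in control ECs against 548.9 and 516.8, a log2 change of -0.06 with a 95% interval from -0.21 to 0.10 (adjusted p = 0.767, limma). Mtss1 had 322.3 and 329.0 against 276.1 and 290.7, a log2 change of -0.20 with an interval from -0.38 to -0.02 (adjusted p = 0.192, limma), with both NOVA2-overexpressing libraries below both controls. Mical3 had 60.4 and 54.1 against 39.7 and 46.98, also without overlap, and the log2 change of -0.40 had an interval from -0.81 to 0.01 (adjusted p = 0.276, limma).

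The 2 exons of Spna2 give the depth of 1 gene at separate places. Over the exon of 60 nt it was 846.7 and 769.9 scaled reads in control ECs and 889.0 and 979.5 in NOVA2-overexpressing ECs, a log2 change of 0.21 with an interval from 0.07 to 0.35 (adjusted p = 0.0628, limma). The intervals are not adjusted for the number of events. Over the microexon, the sum of its inclusion and skipping reads was 1264 and 1179 against 1269 and 1317, a log2 change of 0.08 (adjusted p = 0.552, limma). With skipping reads divided by the excluded share, a choice made after seeing the data that matches the scaled reads of this exon above, the log2 change was 0.18 (adjusted p = 0.0788, limma). With the total junction depth as the scale, the exon of 60 nt passed (adjusted p = 0.0461, limma). In bulk RNA, fewer cells with a transcript and less of it per cell cannot be told apart. Both NOVA2-overexpressing libraries were also deeper than both controls over the deposited events (193436 and 182795 against 124374 and 155864 reads), and the part of this in the differences was not tested.

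**Figure D4:**
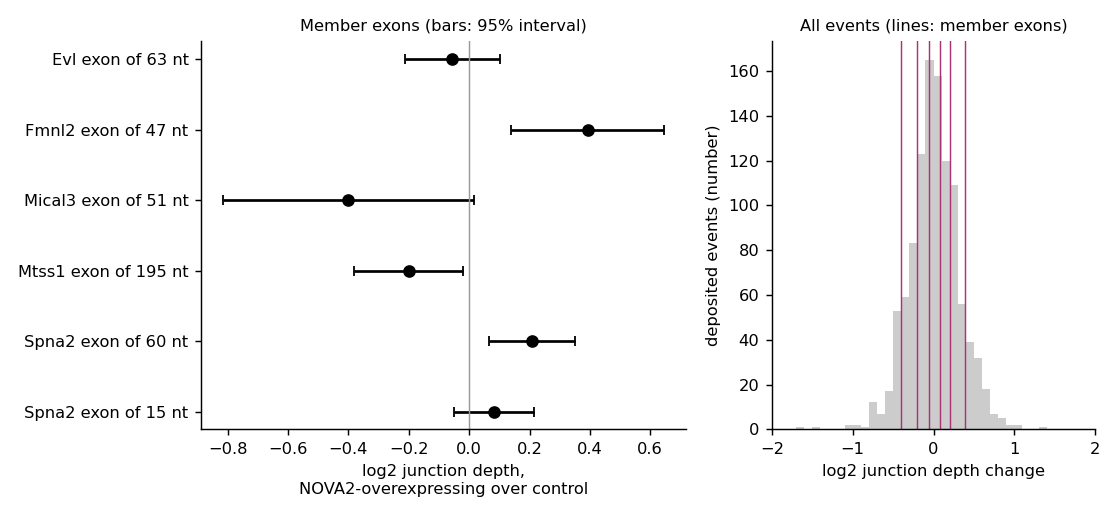
Log2 change of junction depth, NOVA2-overexpressing over control, of the 6 exons with 95% intervals (left), and of all deposited events with lines at the 6 exons (right, number of events on the y axis). The 6 exons lie between -0.40 and 0.39, the intervals of Fmnl2, Mtss1 and the Spna2 exon of 60 nt do not reach 0, and Fmnl2 alone passed after adjustment.

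YCAY tetramers were counted, overlapping ones included and on the transcribed strand alone, in each exon and in the 200 nt on either side. Counts are set beside the share of the 549 deposited cassette exons with at least as many, and beside medians of 3 before, 3 after and 1.66 per 100 nt of exon. Mical3 had the most motifs next to its exon, 8 before and 10 after, which 7.83% and 2.00% of the cassette exons reached. The first of the 100 nt below ends at the exon and the other begins behind it, and both are shown because no flank of the other exons held as many motifs in its 200 nt.
Mical3, before, chr6:120903703-120903802 (-): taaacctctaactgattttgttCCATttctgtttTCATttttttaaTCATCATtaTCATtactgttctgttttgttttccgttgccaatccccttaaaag
Mical3, after, chr6:120903552-120903651 (-): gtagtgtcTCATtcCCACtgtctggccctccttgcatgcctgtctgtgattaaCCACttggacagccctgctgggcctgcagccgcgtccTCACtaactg
The first motif of the downstream intron starts 8 nt behind the exon, and 5 of the 8 upstream motifs lie in the 100 nt shown.

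The exons with lower PSI all held YCAY inside the exon. Mtss1 had 8 in its 195 nt (4.1 per 100 nt), a density that 11.1% of the cassette exons reached, Fmnl2 had 2 (4.26 per 100 nt, reached by 9.84%), Mical3 had 2 (3.92 per 100 nt, 13.1%) and Evl had 1 (1.59 per 100 nt, 52.3%). The Spna2 exons, whose PSI was higher, held none, as did 21.5% of all the cassette exons. That share is not matched for length: the median cassette exon had 105 nt, against 60 and 15 nt in Spna2. A short exon has fewer places for a tetramer, so no link between direction and motifs in the exon is read from this. With so few exons no test was made, and a match of letters is not a binding site. In Fmnl2 all 4 upstream motifs fell in the last 100 nt of the intron, shown for this clustering.
Fmnl2, before, chr2:52989346-52989445 (+): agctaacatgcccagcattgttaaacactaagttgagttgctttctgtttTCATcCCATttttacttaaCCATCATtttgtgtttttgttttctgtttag
Evl also had 4 upstream, of which 3 lie in its intron of 86 nt and 1 beyond the intron. Mtss1 had 4 upstream and 0 in the 200 nt downstream.

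Both Spna2 exons had 6 motifs in the 200 nt after the exon, which 17.1% of the cassette exons reached. Before the exon there were 7 at the exon of 60 nt (reached by 12.4%) and 5 at the microexon (29.9%). Their downstream flanks are shown because these are the exons with higher PSI.
Spna2 60 nt, after, chr2:29856680-29856779 (+): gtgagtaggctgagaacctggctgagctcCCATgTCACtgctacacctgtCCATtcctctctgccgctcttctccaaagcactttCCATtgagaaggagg
Spna2 15 nt, after, chr2:29869693-29869792 (+): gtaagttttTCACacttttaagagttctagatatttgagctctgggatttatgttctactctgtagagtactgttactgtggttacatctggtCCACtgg
The first downstream motif starts 29 nt behind the exon of 60 nt and 9 nt behind the microexon. With YGAY (CGAC or CGAT as well as TGAC or TGAT) in place of YCAY, no 200 nt window of the 6 exons held more than 4 motifs. The same was true of YCAY in the flanks of Evl, Fmnl2 and Mtss1. No share over the cassette exons was set beside YGAY, so this count is not a control for YCAY.

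**Figure D5:**
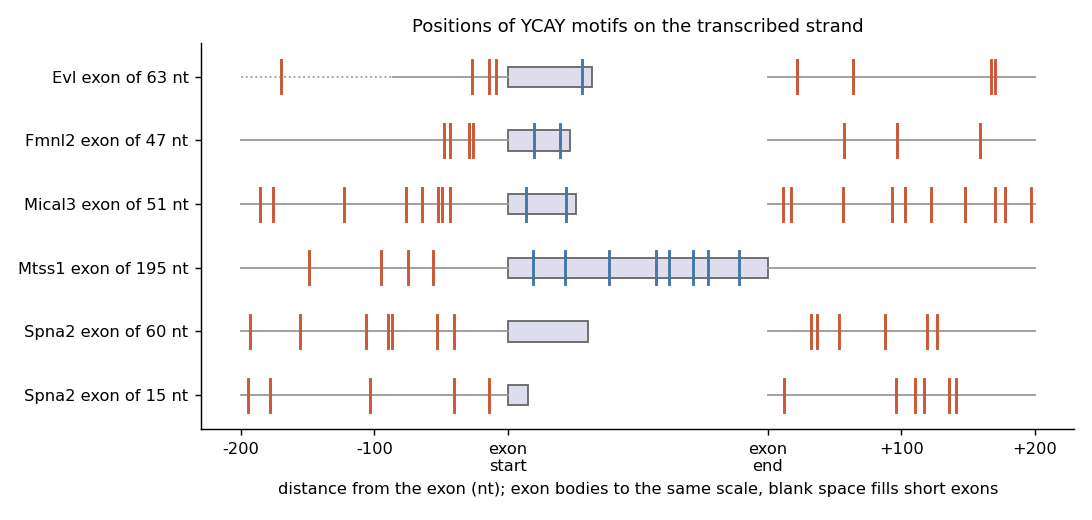
Positions of YCAY tetramers (orange in flanks, blue in exons) in the 200 nt before, in, and in the 200 nt after each of the 6 exons (x axis, distance in nt; boxes, exons to scale; dotted, sequence upstream of the short Evl intron). Mical3 has marks on both sides, Mtss1 has 8 in the exon and none after it, and the Spna2 exons have 6 each after the exon.

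Other genes of actin assembly and the membrane cortex were counted from a list of 245 symbols. The list was drawn up with earlier results of these data known, so its counts and its largest differences are a description. Beside the 5 genes, 14 genes of the list have 18 deposited events, 12 with lower and 6 with higher PSI in NOVA2-overexpressing ECs, and 10 of the 18 had an absolute dPSI of at least 10 (8 lower, 2 higher), where 53.1% of all deposited events do. Of the deposited cassette exons, 62.7% have a lower PSI, and 33.2% are lower and 19.9% higher by at least 10 points, so the lean of the list to lower PSI is not read as particular to it. Among nucleators and elongators, the PSI of a 75-nt exon of Cobl, which nucleates actin through WH2 domains, was 62.4% and 58.1% in control ECs and 47.2% and 52.2% in NOVA2-overexpressing ECs. Mical1, the relative of Mical3, had a 208-nt exon at 89.2% and 91.3% against 71.4% and 83.3%, on 33 to 44 reads. Of the membrane benders, Fnbp1 with an F-BAR domain had a dPSI of -12.7 points, and the endophilin gene Sh3gl3 had one of 13.2 points. The Sh3gl3 exon was at 90.5% and 83.1% in control ECs, on 57 to 84 reads over all libraries. In both NOVA2-overexpressing libraries it was at 100%, the upper limit of PSI.

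The cortex and linker genes held 12 of the 18 events. The largest differences were in a 108-nt exon of Lrch3 (84.6% ± 0.516 to 53.9% ± 4.84, SD, n = 2), a 120-nt exon of Phldb2, which binds phosphoinositides at the membrane (85.6% ± 0.983 to 60.5% ± 1.62), and a 9-nt microexon of Macf1, a giant linker of actin and microtubules (92.8% ± 1.21 to 73.0% ± 2.18). In contrast to the Spna2 microexon, the Macf1 microexon was included less, with a dPSI of -19.8 points.

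For each of the 6 exons the cassette exon of another gene with the nearest PSI over the 4 libraries was found, by the root mean square distance in points. The nearest to Evl was an 89-nt exon of Dnase1l1 (distance 1.74), to Fmnl2 a 139-nt exon of Dnm2, the gene of dynamin 2 (1.54), and to Mtss1 a 39-nt exon of Dock11 (2.67). Mical3 had the farthest nearest exon, 21 nt in Nav3 (4.03). The Spna2 exon of 60 nt was nearest to a 291-nt exon of Sec31a, a gene of the vesicle coat COPII (1.29), and the microexon to a 33-nt exon of Luc7l2 (2.51). Likeness over 4 libraries is a description of these values.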

How the data were processed

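RNA-seq libraries of 2 control and 2 NOVA2-overexpressing EC samples were sequenced by the authors (HiSeq2500, paired ends) and run through vast-tools on mm9. The deposited table, made by the authors, lists PSI, a percent, for all events in each library, next to a string that holds coverage scores and junction reads. The authors kept events with over 5 points between all libraries of the 2 groups; their own dPSI column and 12 further columns per sample, of samples outside the comparison, were not used. The 5 genes, the gene list and the tests were chosen with earlier results of these data known.

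From these files, PSI means, SDs and Wilson intervals (95%, on rounded corrected reads) were computed in Python 3.11.15 with scipy 1.17.1. Junction depth was scaled by the median of ratios and fitted with limma 3.58.1 (trended eBayes) in R 4.3.3 on log2(depth + 0.5), with Benjamini-Hochberg adjustment over all events. With 2 libraries a group, an exact two-sided permutation test of 1 value cannot go below p = 0.333. The limma p-values take the spread of an event largely from a trend over all events, and less from its own libraries. They reflect only spread between these libraries, which may be technical. Replicates differed beyond counting noise (chi-square per degree of freedom 1.20 in control and 1.21 in NOVA2-overexpressing ECs over upstream junction reads), so they were not taken for 1 library deposited again, which does not show separate cultures. The depth code was tested on simulated data in which 200 of 1075 events changed by a log2 of 1. It called 86.5% of these and 5 of the 875 unchanged events. Changes as small as that of Fmnl2 (log2 0.39) were not simulated, so the simulation does not bear on that call.

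Sequence and exons came from NCBIM37, the same assembly as mm9, with GENCODE vM1. Of the 549 cassette exons, 546 were preceded by AG and 544 followed by GT. The genes named beside the 5 are, per part of the list, up to 3 with the largest absolute dPSI of at least 10, and for each exon the nearest cassette exon of another gene. Alternatives changed the PSI estimate, the thresholds, the scaling, pseudocount, depth filter, trend, replicate block and motif window, and left out each library.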

Additional observations from a re-analysis of the deposited data

How the results depend on the processing

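Under other PSI estimates, 24 of 28 values of dPSI of the 6 exons moved by less than the SD between replicates and 4 by more, with no change of sign. Many of these reuse the reads of the deposited PSI (both junctions, group sums, pooled values) and could hardly move. The 4 were Fmnl2 from each single junction, Mical3 from the downstream junction and the Spna2 microexon from raw reads. Mical3 from the upstream junction, at -25.1 points, counted as unmoved because its replicates spread widely. Leaving out a library cannot turn a sign under the rule of the table. The number of exons at an absolute dPSI of at least 10 points was 6. It was 3 (Fmnl2, Mical3 and Mtss1) at 15 points and 5 with PSI from raw reads. In the gene list with the 5 genes included, 8 events were higher and 16 lower, and at 10 points 4 and 12.

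The number of events with a change in junction depth was 71. It was 0 in limma without a trend, where 181 had an unadjusted p under 0.05 against 206 with it, and 24 to 58 without 1 library: 38 without control replicate 1, 37 without NOVA2-overexpressing replicate 1 and 24 without NOVA2-overexpressing replicate 2. With a replicate block it was 56, and the Fmnl2 call was lost (adjusted p = 0.0616, limma). Replicate numbers were not shown to pair the libraries: depth deviations of equal numbers correlated at r = -0.03 across 1075 events, which are not independent replicates. Fmnl2 also missed the threshold with the deposited inclusion and exclusion reads summed (0.226). That sum counts an included transcript at both junctions, so it moves with PSI by construction, and under it Mtss1 (0.000605) and the Spna2 exon of 60 nt (7.05e-05) passed. The deposited exclusion reads divided by the excluded share equal that sum, and over the events kept there Mical3 passed too (0.0432). In 300 nt after the Mtss1 exon there were 3 YCAY, against 0 in 200 nt.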
